A study of Mus musculus with 8 samples.

Results

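The E2F transcription factors and the retinoblastoma pocket proteins form the switch that opens and closes the programme of DNA replication genes, and 10 of their genes were followed here across 4 groups of mouse bone marrow B cell progenitors. The members were taken by symbol, matched to the Entrez gene IDs of the deposited count table. They comprise the activators E2f1, E2f2 and E2f3, the repressors E2f4 and E2f5, the atypical repressors E2f7 and E2f8, and the pocket proteins Rb1, Rbl1 (p107) and Rbl2 (p130). They are 10 of the 27179 genes in the table, and all 10 were among the 17700 genes that passed the filter on low counts and were tested.

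RNA-seq was carried out on early large pre-B (early LPre-B) and small pre-B (sPre-B) cells sorted by flow cytometry from adult mice, with 2 libraries for each of 4 groups. Upf1 was Flox/Flox in all 4 groups, which means that the control cells carried the floxed allele too. One Igh copy was the pre-rearranged B1-8hi knock-in (Igh B1-8hi/+), again in all of them. Mb1 was Cre/+ in the Upf1-cKO groups and +/+ in the control (Ctrl) groups. Cre was expressed from the Mb1 (Cd79a) locus, so recombination was limited to B lineage cells and the cKO cells also had 1 Mb1 copy occupied by Cre, a difference that cannot be told apart from the loss of Upf1. UPF1 is an RNA helicase required for nonsense-mediated mRNA decay. The comparisons asked how the genes changed from early LPre-B to sPre-B cells in each genotype, how the genotypes differed at each stage, and whether the stage change differed between genotypes.

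Early LPre-B cells proliferate, whereas sPre-B cells have left the cycle and rearrange their light chain genes. Activator E2Fs, bound to DNA as dimers with DP proteins, drive genes of the G1/S transition, and hypophosphorylated RB1 binds and silences them. E2F4 and E2F5 act mainly with p107 and p130 and, with the MuvB core, form the DREAM complex that holds cell cycle genes down in quiescent cells. E2F7 and E2F8 repress without DP partners or pocket proteins. E2f1, E2f2, E2f3, E2f7, E2f8 and Rbl1 are themselves known as E2F target genes, so that part of the family feeds back on itself.

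Promoter windows, each covering 250 bases before and 50 bases after a RefSeq transcription start (GRCm38.p6), were found for 7 of the 10 genes, in 9 windows. An 8-base E2F motif (TTTCGCGC, TTTGGCGC, TTTCCCGC or TTTGCCGC, either strand) was present in 2.26% of all 32851 windows of this length, and a cell cycle homology region (CHR, TTTGAA or TTCGAA, either strand) in 19.2%. Each 8-base motif includes a 6-base core (the motif without its first and last letter), which was present in 24.9% of all windows, and no CHR match overlapped an E2F match in the windows printed here. The 5 windows below are the 4 with an 8-base match (Rbl1, E2f2, E2f3 and E2f7) and that of E2f8, the gene with the largest stage change in Ctrl cells. Sequences run 5′ to 3′ on the gene's strand, and capitals mark the 8-base and CHR matches and, in E2f8 alone, the 6-base core. Further 6-base cores in the E2f2, E2f3 and E2f7 windows are left in lower case.
Rbl1, chr2:157204485-157204784, minus strand: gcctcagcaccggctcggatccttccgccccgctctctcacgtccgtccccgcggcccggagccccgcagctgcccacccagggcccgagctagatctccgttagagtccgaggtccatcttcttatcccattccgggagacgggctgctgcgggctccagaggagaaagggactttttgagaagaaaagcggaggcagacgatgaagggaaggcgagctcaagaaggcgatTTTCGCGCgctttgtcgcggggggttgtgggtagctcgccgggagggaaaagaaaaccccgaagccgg
E2f2, chr4:136172024-136172323, plus strand: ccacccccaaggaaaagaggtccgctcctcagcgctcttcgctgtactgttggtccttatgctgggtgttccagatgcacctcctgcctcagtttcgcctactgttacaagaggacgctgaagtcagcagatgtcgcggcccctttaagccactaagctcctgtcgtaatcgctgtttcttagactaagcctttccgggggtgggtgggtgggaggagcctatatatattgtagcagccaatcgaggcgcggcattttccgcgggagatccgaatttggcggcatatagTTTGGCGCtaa
E2f3, chr13:29986014-29986313, minus strand: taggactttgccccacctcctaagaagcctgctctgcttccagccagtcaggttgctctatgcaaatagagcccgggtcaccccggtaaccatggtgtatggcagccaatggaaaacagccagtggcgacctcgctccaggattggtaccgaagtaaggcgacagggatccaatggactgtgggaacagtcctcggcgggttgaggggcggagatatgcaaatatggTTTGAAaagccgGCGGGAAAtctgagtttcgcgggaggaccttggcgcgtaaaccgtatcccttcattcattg
E2f7, chr10:110745189-110745488, plus strand: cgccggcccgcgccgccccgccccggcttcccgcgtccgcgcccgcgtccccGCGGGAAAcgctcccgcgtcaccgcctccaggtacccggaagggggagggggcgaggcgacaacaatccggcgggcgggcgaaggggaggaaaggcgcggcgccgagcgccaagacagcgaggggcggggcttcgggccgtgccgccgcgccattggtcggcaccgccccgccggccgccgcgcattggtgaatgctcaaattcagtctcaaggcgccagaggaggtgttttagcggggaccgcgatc
E2f8, chr7:48881547-48881846, minus strand: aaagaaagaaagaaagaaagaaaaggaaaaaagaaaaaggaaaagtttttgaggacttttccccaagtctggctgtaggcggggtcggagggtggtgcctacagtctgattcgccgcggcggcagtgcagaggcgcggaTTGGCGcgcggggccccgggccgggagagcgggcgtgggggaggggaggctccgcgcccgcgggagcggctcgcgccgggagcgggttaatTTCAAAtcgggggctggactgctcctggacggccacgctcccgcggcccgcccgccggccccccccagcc
The 8-base motif began 18 bases before the start in Rbl1, 11 before it in E2f3, 198 before it in E2f7 and 39 after it in E2f2. In E2f3 the capitals nearer the 5′ end mark a CHR match at 23 bases before the start. The E2f8 window held no 8-base match: its capitals mark the 6-base core TTGGCG at 111 bases before the start and a CHR match at 20 bases before it. No 8-base match was found in the windows of E2f1 and Rbl2 or in a further, downstream window each of E2f2 and E2f3. The windows of E2f1 and E2f8 lie around starts inside the annotated genes, downstream of the genes' 5′ ends, so they do not cover the sequence before those ends. The E2f1 window held no match of any of the 3 sets, the Rbl2 window held a CHR match at 201 bases before the start, and the downstream E2f2 window held one at 31 bases before its start. E2f4, E2f5 and Rb1 had no window. A match describes the letters only, and no binding was measured.

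Library totals ranged from 68516857 to 160426338 counts, so that sampling noise was small for every member: the lowest member count in any library was 409, for E2f1. Levels are given as CPM (counts scaled to a common library size with TMM factors). Whole-gene Upf1 counts were not lower in the libraries labelled Upf1-cKO (186 to 237 CPM in Ctrl, 244 to 293 CPM in cKO; log2 fold change 0.16 in early LPre-B and 0.59 in sPre-B cells, the latter called at an edgeR quasi-likelihood adjusted p = 0.00245), and since these counts include the exons outside the floxed part, they do not check the deletion. All 7 B lineage markers were detected in every library (1841 to 5649 summed CPM). Of these, the surrogate light chain genes Vpreb1 and Igll1 stood at 120.3 to 338 CPM in early LPre-B but at 4.91 to 10.3 CPM in sPre-B cells, and Cd79a, the locus that carries Cre, was at 543 to 1602 CPM in Ctrl and 160.0 to 405 CPM in cKO libraries. The sPre-B stage markers (Il2ra, Cd2, Rag1 and Rag2) summed to 530.0 to 539.9 CPM in Ctrl early LPre-B, 3748 to 4317 CPM in Ctrl sPre-B, 104 to 156 CPM in cKO early LPre-B and 2258 to 2417 CPM in cKO sPre-B cells. The early LPre-B stage markers (Spn and Kit) summed to 199 to 217, 49.2 to 61.5, 124 to 139.5 and 49.6 to 63.0 CPM in the same order. Cells were sorted on CD25 (Il2ra), CD2 and CD43 (Spn), whereas the products of Rag1, Rag2 and Kit were not part of the gates. The 6 T and NK cell markers summed to at most 2.60 CPM. The 6 myeloid markers summed to 105 to 126 CPM in Ctrl early LPre-B, 276 to 322 CPM in Ctrl sPre-B, 45.2 to 50.7 CPM in cKO early LPre-B and 201 to 218 CPM in cKO sPre-B cells; most of each sum was Itgam. Lyz2 (11.7 and 18.1 CPM in Ctrl early LPre-B, 22.9 and 26.2 CPM in Ctrl sPre-B) and S100a8 (3.85 and 5.46 CPM, 18.7 and 21.2 CPM) were also higher in Ctrl sPre-B cells, Csf1r was at most 4.996 CPM, and Mpo and Elane were at most 6.54 CPM. The 5 erythroid markers summed to at most 21.3 CPM, and the 3 plasma cell markers to 436 to 1132 CPM in all groups. The part of these markers in the results was not tested. In both Ctrl groups, replicate 2 had Y-linked reads (19733 and 28205 counts) and almost no Xist (304 and 151 counts), whereas the other 6 libraries had at least 290740 Xist counts and at most 34 Y-linked counts. Sex and genotype were therefore partly mixed, and the comparisons were also run on the 6 Xist-expressing libraries. That fit has 1 library in each Ctrl group, which is assumed to vary like the cKO replicates, and leaving out any library likewise leaves 1 in its group. In bulk samples, fewer cells of one kind and less RNA per cell cannot be told apart. By these sex-linked counts the Ctrl replicates came from different animals. The labels do not say so for the cKO replicates, and the study's methods describe plotted data points in general as biological replicates. The median SD of log2 levels between replicates was 0.152 and 0.123 in the Ctrl groups and 0.109 and 0.120 in the cKO groups.

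**Figure D1:**
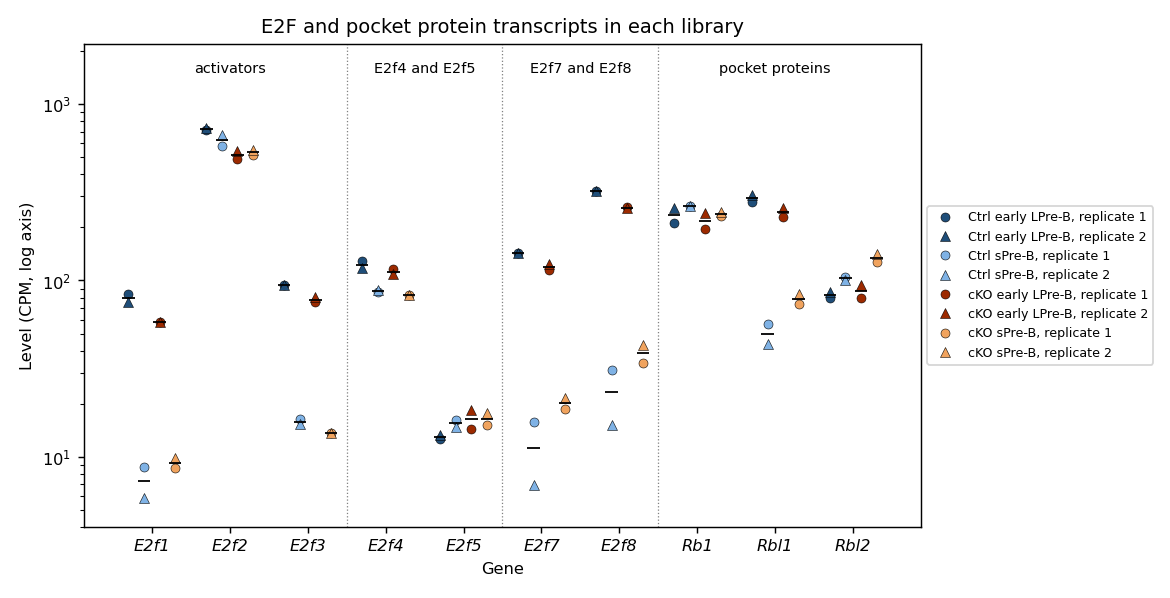
Levels of the 10 genes (CPM, logarithmic axis) in each of the 8 libraries, by group; circles are replicate 1, triangles replicate 2, and the short bars are group means. E2f1, E2f3, E2f7, E2f8 and Rbl1 drop from early LPre-B to sPre-B cells in both genotypes, E2f2 stays between 490.4 and 735 CPM in all 8 libraries, and the Ctrl sPre-B libraries lie apart for E2f7 (15.7 and 6.87 CPM) and E2f8 (31.2 and 15.1 CPM).

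In control cells, 6 of the 10 genes fell from early LPre-B to sPre-B cells, 1 rose and 3 were not called. A gene is called where the Benjamini-Hochberg adjusted p over all tested genes was under 0.05 in edgeR's quasi-likelihood test. Over all genes tested, 31.1% were called lower and 29.1% higher in this comparison, and the median log2 fold change was 0.02 against -1.53 for the 10 genes. The genes that fell included activators and repressors alike.

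Among the activators, E2f1 (chr2:154559400-154569892, minus strand), the member best known for driving S phase entry, stood at 83.9 and 75.8 CPM in the Ctrl early LPre-B libraries and at 8.78 and 5.80 CPM in the sPre-B libraries. It was 10.9-fold lower in sPre-B cells (log2 fold change -3.45, SE 0.19, adjusted p = 2.24e-06, edgeR quasi-likelihood). E2f3 (chr13:29906575-29986064, minus strand) went from 93.7 and 94.0 CPM to 16.3 and 15.3 CPM, a 5.94-fold drop with little spread between replicates (log2 fold change -2.57, SE 0.09, adjusted p = 6.36e-07, edgeR quasi-likelihood). E2f2 (chr4:136172274-136196057, plus strand) behaved differently from both. It stood at 711 and 735 CPM in early LPre-B and 581 and 668 CPM in sPre-B cells, and although these values did not overlap, the change of -0.21 on the log2 scale was not called (95% interval -0.50 to 0.08, edgeR quasi-likelihood adjusted p = 0.177). It was called when the replicate number within each genotype was taken as a block (adjusted p = 0.0441), a pairing that the labels do not state.

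The repressors E2f4 and E2f5 moved little. E2f4 (chr8:105297663-105305370, plus strand), which carries p107 and p130 to promoters, was at 129 and 117 CPM in early LPre-B and 85.6 and 88.2 CPM in sPre-B cells, 1.42-fold lower (log2 fold change -0.50, SE 0.08, edgeR quasi-likelihood adjusted p = 0.000853). E2f5 (chr3:14578602-14606309, plus strand) had the lowest level of the family in Ctrl early LPre-B cells, at 12.6 and 13.3 CPM, and was at 16.1 and 14.7 CPM in sPre-B cells. Its change was not called (log2 fold change 0.26, 95% interval -0.09 to 0.60).

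The atypical repressors fell steeply as well. E2f7 (chr10:110745439-110787384, plus strand) was at 144 and 143 CPM in early LPre-B cells and at 15.7 and 6.87 CPM in sPre-B cells, 12.7-fold lower (log2 fold change -3.66, SE 0.32, edgeR quasi-likelihood adjusted p = 2.07e-05). E2f8 (chr7:48866429-48882073, minus strand) was at 323 CPM in both early LPre-B libraries and at 31.2 and 15.1 CPM in the sPre-B libraries, 13.9-fold lower (log2 fold change -3.80, SE 0.30, edgeR quasi-likelihood adjusted p = 1.23e-05). The groups were far apart for both genes, but within Ctrl sPre-B cells replicate 1 was 2.28-fold above replicate 2 for E2f7 and 2.06-fold for E2f8, the widest replicate gaps of any member in any group. E2f1 (1.51-fold) and Rbl1 (1.30-fold) differed the same way between these libraries. The 28 G1/S E2F target genes summed to 1456 CPM in Ctrl sPre-B replicate 1 and 1085 CPM in replicate 2, and the 13 G2/M genes to 1560 and 811 CPM. Without replicate 2 the stage changes were -3.13 for E2f7, -3.31 for E2f8 and -3.12 for E2f1 on the log2 scale, and without replicate 1 they were -4.32, -4.35 and -3.72, all still called. The gap between E2f7 and E2f1 therefore rested on replicate 2, and in cKO cells E2f7 did not fall further than E2f1.

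Of the E2f8 exon sequence, 15.7% overlaps Gm2788, a noncoding gene on the opposite strand, and Gm2788 ran through the 8 libraries almost in step with E2f8 (46.0 and 43.2 CPM in Ctrl early LPre-B, 4.40 and 1.91 CPM in Ctrl sPre-B cells). The libraries were made with a directional kit, but the reads were aligned as unstranded and the strand setting of the counting is not given in the sources used here, so reads of the overlapping stretch cannot be assigned to either gene with certainty.

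Of the 3 pocket protein genes, 1 was called lower and 1 higher. Rb1 (chr14:73192858-73325951, minus strand), the retinoblastoma tumour suppressor, was at 212 and 257 CPM in early LPre-B and 264 and 266 CPM in sPre-B cells and was not called (log2 fold change 0.18, 95% interval -0.12 to 0.47), except without Ctrl early LPre-B replicate 2, where it was called higher (0.39, adjusted p = 0.0371). Rbl1 (chr2:157145893-157204534, minus strand), whose product p107 is made mainly in cycling cells, went from 280.0 and 305 CPM to 56.5 and 43.4 CPM, 5.85-fold lower (log2 fold change -2.55, SE 0.15, edgeR quasi-likelihood adjusted p = 2.78e-06). Rbl2 (chr8:91070057-91123844, plus strand), whose product p130 is the pocket protein of quiescent cells, rose from 79.1 and 86.2 CPM to 105 and 101 CPM, a 1.24-fold increase (log2 fold change 0.31, SE 0.11, edgeR quasi-likelihood adjusted p = 0.0307). The Rbl2 call was lost without Ctrl early LPre-B replicate 1 (adjusted p = 0.0755) and without Ctrl sPre-B replicate 1 (adjusted p = 0.0515), and the difference between the Rb1 and Rbl2 changes was not tested. Of the Rbl2 exon sequence, 16.8% overlaps genes on the opposite strand, Aktip and Gm45464. Aktip itself rose with stage in Ctrl cells (log2 fold change 0.77, edgeR quasi-likelihood adjusted p = 0.000445), and Gm45464 was not examined.

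In Upf1-cKO cells the same 6 genes were called lower and Rbl2 was again the only member called higher, against 31.1% of all tested genes called lower and 31.6% higher. The median log2 fold change was -1.04 for the 10 genes and 0.05 for all genes. E2f1 went from 57.8 CPM in both early LPre-B libraries to 8.60 and 9.80 CPM in the sPre-B libraries, 6.28-fold lower (log2 fold change -2.65, SE 0.18, edgeR quasi-likelihood adjusted p = 5.96e-06). E2f3 went from 75.6 and 80.2 CPM to 13.6 CPM in both libraries (log2 fold change -2.52, SE 0.09). E2f7 went from 115 and 125 CPM to 18.6 and 21.6 CPM and E2f8 from 259.9 and 257 CPM to 34.2 and 43.3 CPM, drops of 5.97-fold and 6.67-fold. Here the sPre-B replicates lay close together. Rbl1 went from 230.5 and 257 CPM to 73.3 and 83.9 CPM, 3.11-fold lower (log2 fold change -1.63, SE 0.14). Rbl2 rose from 79.3 and 94.0 CPM to 127 and 141 CPM, 1.55-fold (log2 fold change 0.63, SE 0.11, edgeR quasi-likelihood adjusted p = 0.000886). E2f4 fell by 0.44 on the log2 scale, while E2f2, E2f5 and Rb1 were not called, with intervals of -0.24 to 0.33, -0.35 to 0.34 and -0.17 to 0.42. All of the 7 calls held in each of the alternative fits of this comparison. The stage comparisons in Ctrl and cKO cells share no libraries.

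**Figure D2:**
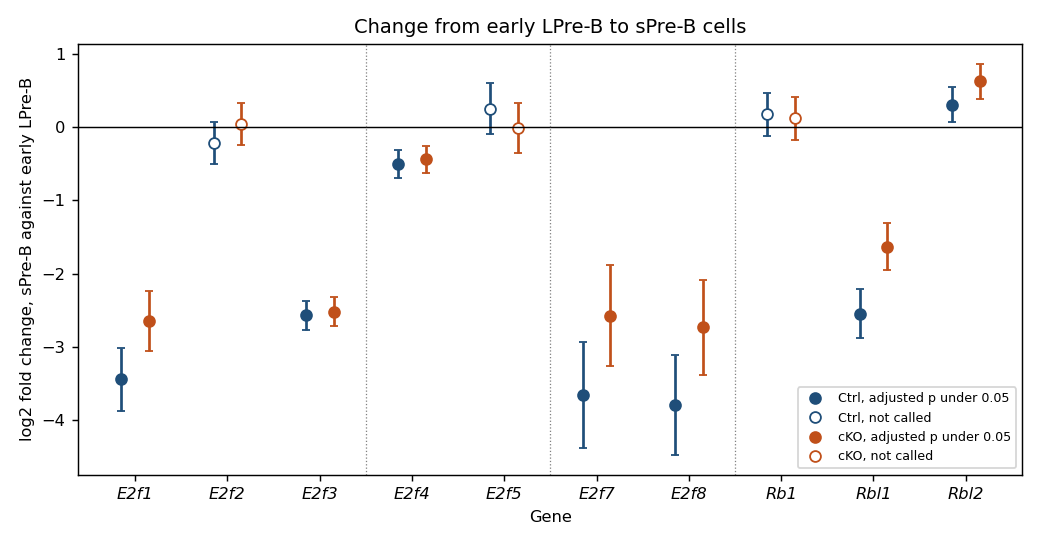
Log2 fold change from early LPre-B to sPre-B cells for each gene in Ctrl (blue) and cKO (orange) cells, with 95% intervals from the edgeR fit; filled points are called. The drop of E2f3 is of similar size in both genotypes (-2.57 and -2.52), whereas the points of E2f1, E2f7, E2f8 and Rbl1 lie higher in cKO cells, and only the Rbl1 difference between genotypes was called.

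To compare levels between genes, CPM values were divided by exon length (CPM per kb). E2f2 was the most abundant of the 10 transcripts on this scale in all 4 groups, at 153 ± 3.72 (SD, n = 2) CPM per kb in Ctrl early LPre-B, 132 ± 12.9 in Ctrl sPre-B, 109 ± 8.05 in cKO early LPre-B and 113 ± 5.91 in cKO sPre-B cells. In Ctrl early LPre-B cells it was followed by E2f8 (83.2 ± 0.084 CPM per kb), then E2f4 (61.8 ± 4.04) and Rbl1 (60.2 ± 3.62), whose ranges overlapped, and Rb1 (50.4 ± 6.87). E2f1 (25.3 ± 1.83), E2f7 (18.1 ± 0.094), E2f3 (17.5 ± 0.033) and Rbl2 (16.8 ± 1.02) came next, the last pair with overlapping ranges, and E2f5 (7.25 ± 0.27) was lowest. In Ctrl sPre-B cells the order behind E2f2 became Rb1 (57.0 ± 0.28), E2f4 (43.6 ± 0.93), Rbl2 (20.8 ± 0.54) and Rbl1 (10.3 ± 1.90), the last of which overlapped with E2f5 (8.67 ± 0.56). E2f8 (5.97 ± 2.93), E2f3 (2.95 ± 0.13), E2f1 (2.31 ± 0.67) and E2f7 (1.43 ± 0.79) were lowest there, E2f1 and E2f7 with overlapping ranges.

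The make-up of the E2F pool changed accordingly. E2f2 provided 41.7% of the summed E2F level (CPM per kb) in Ctrl early LPre-B and 66.9% in Ctrl sPre-B cells, and 37.7% and 62.1% in cKO cells. E2f8 provided 22.8% and 3.07% in the Ctrl stages, and 23.0% and 5.49% in the cKO stages. E2f4 was steadier, at 16.9% and 22.2% in Ctrl and 19.5% and 22.9% in cKO cells. Among the pocket proteins, Rbl1 went from 47.3% to 11.6% of the sum in Ctrl cells and from 43.8% to 17.1% in cKO cells, while Rbl2 went from 13.2% to 23.7% and from 15.3% to 28.8%.

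**Figure D3:**
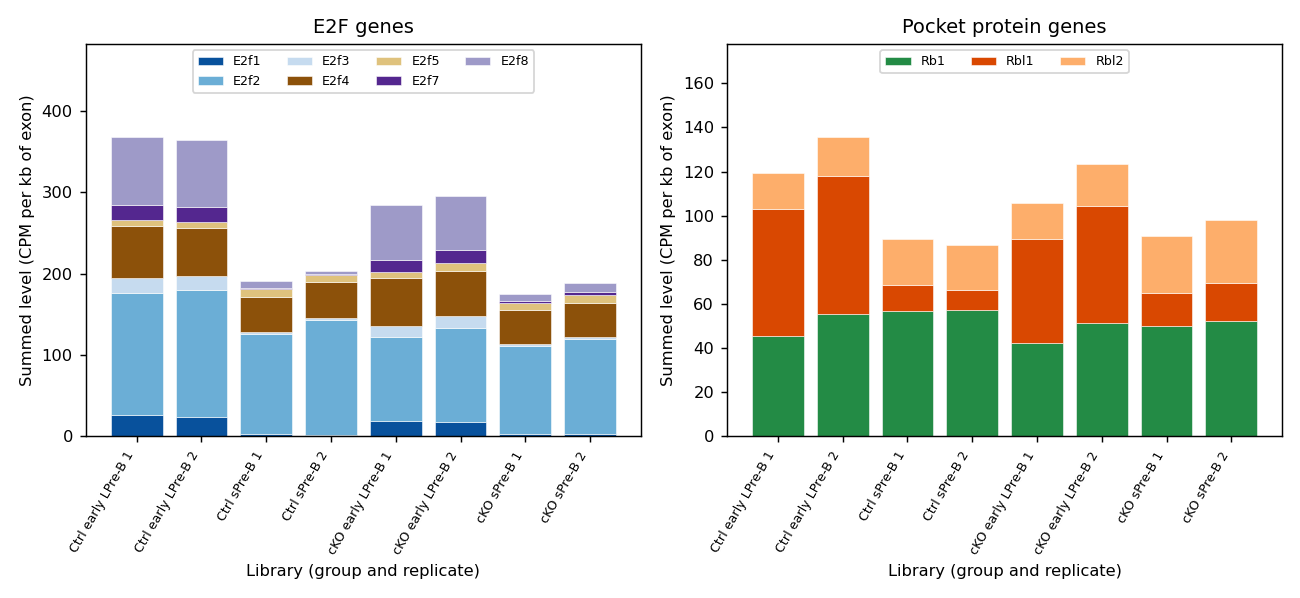
Summed levels (CPM per kb of exon) of the 7 E2F genes and the 3 pocket protein genes in each library, stacked by gene. The E2F stacks of sPre-B cells (175 to 203 CPM per kb) are lower than those of early LPre-B cells (284 to 367) and consist mostly of E2f2 and E2f4, and in the pocket protein stacks Rbl1 goes from 47.3% to 11.6% in Ctrl and from 43.8% to 17.1% in cKO cells.

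Whether the activator to repressor balance shifted with stage depended on how E2f2 was weighed. With each gene given equal weight (mean log2 CPM of E2f1, E2f2 and E2f3 minus that of E2f4 and E2f5), the balance went from 2.14 ± 0.0019 (SD, n = 2) in Ctrl early LPre-B to 0.17 ± 0.083 in Ctrl sPre-B cells, and from 1.63 ± 0.036 to 0.14 ± 0.015 in cKO cells. With the levels summed per kb, it hardly moved, from 1.50 ± 0.093 to 1.39 ± 0.12 on the log2 scale in Ctrl cells and from 1.12 ± 0.11 to 1.22 ± 0.038 in cKO cells, changes of -0.11 and 0.10. E2f2 made up 77.3% and 78.9% of the summed activators in the Ctrl early LPre-B libraries and 95.5% and 96.8% in the Ctrl sPre-B libraries. With E2f2 left out, a choice made after seeing the data, E2f1 and E2f3 together stood at -0.70 and -0.67 against E2f4 and E2f5 on the log2 scale in Ctrl early LPre-B and at -3.16 and -3.48 in Ctrl sPre-B libraries. The cKO libraries were at -1.03 and -0.96 and at -3.24 and -3.19. Against E2f7 and E2f8, the summed activators rose in relative terms with stage, from 0.95 ± 0.014 to 4.31 ± 0.89 in Ctrl and from 0.79 ± 0.082 to 3.24 ± 0.15 in cKO cells. With E2f2 left out here too, E2f1 and E2f3 stood at -1.20 and -1.29 on the log2 scale in the Ctrl early LPre-B libraries. They stood at -0.78 and -0.022 in the Ctrl sPre-B libraries. In cKO cells the values were -1.33 and -1.30 in early LPre-B and -1.09 and -1.30 in sPre-B libraries. The size of the rise thus depended on E2f2. The log2 ratio of Rbl1 to Rbl2 turned from 1.82 ± 0.0012 to -1.05 ± 0.23 in Ctrl cells and from 1.50 ± 0.061 to -0.77 ± 0.028 in cKO cells. No test was run on these ratios.

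Between genotypes in early LPre-B cells, the members differed by at most 1.40-fold. Of the 10 genes, 2 were called lower and none higher in the libraries labelled cKO, against 16.9% of all tested genes called lower and 14.5% higher. The median log2 fold change, cKO against Ctrl, was -0.26 for the 10 genes and -0.06 for all genes. The count of lower members was near the all-gene share, and both called genes were activators. E2f2 was at 490.4 and 544 CPM in cKO against 711 and 735 CPM in Ctrl cells, 1.40-fold lower (log2 fold change -0.48, SE 0.13, edgeR quasi-likelihood adjusted p = 0.0198). E2f3 was at 75.6 and 80.2 CPM against 93.7 and 94.0 CPM, 1.20-fold lower (log2 fold change -0.27, SE 0.08, edgeR quasi-likelihood adjusted p = 0.0342). E2f1, the other activator, was at 57.8 CPM in both cKO libraries against 83.9 and 75.8 CPM, a difference of -0.47 on the log2 scale that was not called (edgeR quasi-likelihood adjusted p = 0.0653). The calls depended on the fit. E2f2 was called in 9 of 14 alternatives and lost when any early LPre-B library was left out (adjusted p from 0.0520 to 0.140) and on the 6 Xist-expressing libraries (0.0556), while its log2 difference stayed between -0.56 and -0.41 in all 14. E2f3 was called in only 3 of 14, and was lost with the likelihood-ratio test (adjusted p = 0.0637), with no expression filter (0.0850), when any of the 8 libraries was left out (0.0579 to 0.215) and on the Xist-expressing libraries (0.136), with log2 differences between -0.31 and -0.22. E2f1 was called in 6 of 14, with an adjusted p of 0.0473 by the likelihood-ratio test, 0.0346 by DESeq2, 0.0258 with no expression filter, 0.0191 and 0.0186 without Ctrl sPre-B replicate 1 or 2, and 0.0289 on the Xist-expressing libraries. E2f1 and E2f3 are thus not separated by these calls. Some of the stage markers given above also differed between the genotypes in early LPre-B cells. Kit was at 18.7 and 15.1 CPM in Ctrl and at 3.84 and 2.08 CPM in cKO cells. Rag1 was at 409 and 385 CPM against 44.0 and 74.9 CPM. Neither product was part of the gates. Of the genes whose products were, Spn was at 198 and 184 CPM against 120 and 137 CPM. Cd2 was at 5.45 and 5.64 CPM against 4.95 and 6.18 CPM. The part of the markers in these results was not tested.

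The other members were not called in early LPre-B cells, by the edgeR quasi-likelihood test. For E2f7 and E2f8 the log2 differences were -0.25 (95% interval -0.90 to 0.39) and -0.32 (-0.93 to 0.29). The spread behind these intervals was estimated over all 4 groups, including the Ctrl sPre-B libraries, which lay apart for both genes. Within early LPre-B cells E2f8 was at 323 CPM in both Ctrl libraries and at 260 and 257 CPM in the cKO libraries. Those of E2f4, Rb1 and Rbl1 were -0.13, -0.10 and -0.26, and those of Rbl2 and E2f5 were 0.07 and 0.35.

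In sPre-B cells, 2 of the 10 genes, both pocket proteins, were called higher in the libraries labelled cKO and none was called lower. Over all tested genes 19.8% were called higher and 14.9% lower, so the count of higher members was near the all-gene share. The median log2 fold change was 0.21 for the 10 genes and 0.01 for all genes. Rbl1 was at 73.3 and 83.9 CPM in cKO against 56.5 and 43.4 CPM in Ctrl cells, 1.57-fold higher (log2 fold change 0.65, SE 0.14, edgeR quasi-likelihood adjusted p = 0.00757). Every cKO library lay above both Ctrl libraries, and Rbl1 was called in all 14 alternative fits, with an adjusted p of at most 0.0489. With 2 libraries per group such separation was common, and 8 of the 10 members had no overlap between the genotypes at this stage. Rbl2 was at 127 and 141 CPM against 105 and 101 CPM, 1.31-fold higher (log2 fold change 0.39, SE 0.11, edgeR quasi-likelihood adjusted p = 0.0223). The Rbl2 call was lost without Ctrl sPre-B replicate 1 (adjusted p = 0.0773), without replicate 2 (0.118), without cKO sPre-B replicate 2 (0.124) and on the Xist-expressing libraries (0.116). Aktip, which overlaps Rbl2 as Gm45464 does, did not move with it here (log2 fold change -0.13, edgeR quasi-likelihood adjusted p = 0.416).

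E2f7 and E2f8 had the largest differences of the family in sPre-B cells and were not called, though 3 and 4 of 14 alternatives called them. E2f7 was at 18.6 and 21.6 CPM in cKO against 15.7 and 6.87 CPM in Ctrl cells (log2 fold change 0.83, 95% interval 0.16 to 1.50, edgeR quasi-likelihood adjusted p = 0.0585). E2f8 was at 34.2 and 43.3 CPM against 31.2 and 15.1 CPM (log2 fold change 0.74, 95% interval 0.12 to 1.36, edgeR quasi-likelihood adjusted p = 0.0662). The size of both rested on the Ctrl sPre-B libraries: with replicate 2 left out the log2 differences were 0.32 and 0.28, and with replicate 1 left out they were 1.51 and 1.32. E2f1, at 8.60 and 9.80 CPM against 8.78 and 5.80 CPM, overlapped between the genotypes (log2 fold change 0.33, edgeR quasi-likelihood adjusted p = 0.176). E2f2 (-0.23), E2f3 (-0.22), E2f4 (-0.07) and Rb1 (-0.16) lay slightly below Ctrl on the log2 scale and E2f5 (0.08) slightly above, and none was called. Of these, only E2f3 was called in any alternative (3 of 14).

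**Figure D4:**
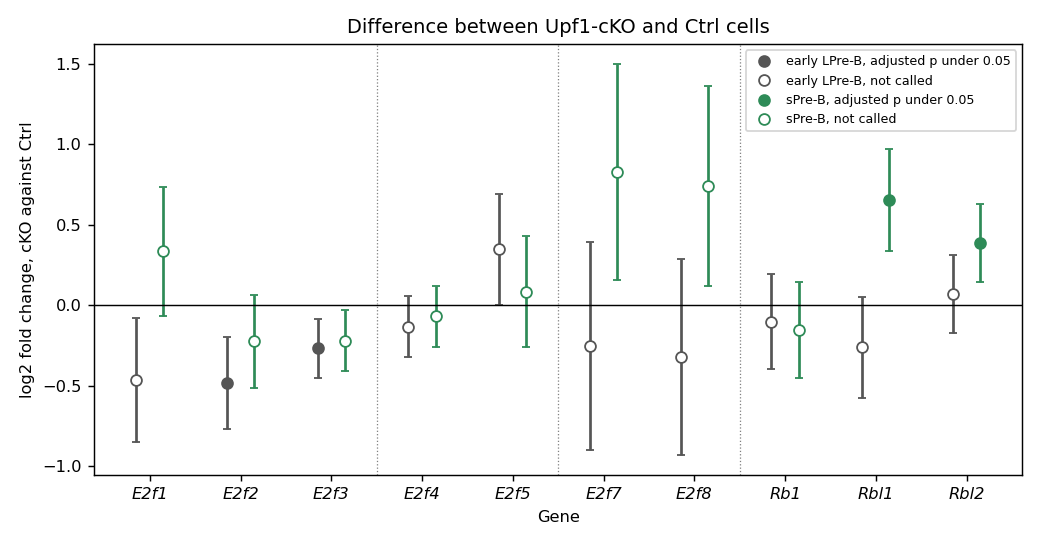
Log2 fold change, cKO against Ctrl, for each gene in early LPre-B (grey) and sPre-B (green) cells, with 95% intervals from the edgeR fit; filled points are called. The called points are E2f2 (-0.48) and E2f3 (-0.27) in early LPre-B and Rbl1 (0.65) and Rbl2 (0.39) in sPre-B cells, and the widest intervals are those of E2f7 and E2f8.

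The stage by genotype term, which tests whether the genotype difference changed between the stages, was called for 1 of the 10 genes. Over all tested genes 2.64% had a positive and 1.6% a negative called term. For Rbl1, the genotype difference was 0.91 higher in sPre-B than in early LPre-B cells on the log2 scale (SE 0.20, edgeR quasi-likelihood adjusted p = 0.0403), which is equally to say that its drop with stage was smaller in cKO cells (-1.63 against -2.55). This call was lost when any 1 of 7 of the 8 libraries was left out (adjusted p from 0.0781 to 0.144) and on the 6 Xist-expressing libraries (log2 difference 0.59, adjusted p = 0.195), and was kept without Ctrl sPre-B replicate 1. The terms of E2f1 (0.80, SE 0.24, edgeR quasi-likelihood adjusted p = 0.105), E2f7 (1.08, SE 0.41, adjusted p = 0.179) and E2f8 (1.06, SE 0.38, adjusted p = 0.162) were of similar size and were not called. E2f1 was called with replicate number within genotype as a block, the same unstated pairing (0.82, adjusted p = 0.0228), E2f7 and E2f8 were not (adjusted p = 0.0597 and 0.0562), and 5, 2 and 3 of 15 alternatives called E2f1, E2f7 and E2f8. These terms rested on the Ctrl sPre-B libraries: without replicate 1 they were 1.05 for E2f1, 1.72 for E2f7 and 1.60 for E2f8, all called (adjusted p = 0.0179, 0.00456 and 0.00739), and without replicate 2 they were 0.45, 0.53 and 0.56, none called. For E2f3 the term was 0.05, with a 95% interval of -0.21 to 0.31, and for E2f4 it was 0.06 (-0.20 to 0.33).

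Other parts of the pathway were read from gene lists. Of the dimer partners, Tfdp1 (DP1) fell with stage in both genotypes (log2 fold change -3.29 in Ctrl and -2.75 in cKO cells), from 252 and 216 CPM to 25.3 and 22.7 CPM in Ctrl cells, and was higher in cKO than in Ctrl sPre-B cells (log2 fold change 0.38, edgeR quasi-likelihood adjusted p = 0.0255). Tfdp2 (DP2) was not called with stage (0.29 and 0.12) and was lower in cKO sPre-B cells (-0.66, edgeR quasi-likelihood adjusted p = 0.0311), where its libraries were at 81.6 and 126 CPM against 169 and 160.5 CPM. E2f6, a repressor that works without pocket proteins, fell with stage in both genotypes (-1.34 and -1.13) and was higher in cKO cells at both stages (log2 fold change 0.46 in early LPre-B, edgeR quasi-likelihood adjusted p = 0.0238, and 0.67 in sPre-B, adjusted p = 0.00454).

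Genes known as E2F targets were lower in sPre-B cells. All 28 G1/S E2F targets were called lower in both genotypes, with a median log2 fold change of -3.36 in Ctrl and -2.70 in cKO cells, against 31.1% of all tested genes called lower in each. Cyclin E1 (Ccne1, -4.33) fell furthest in Ctrl and the origin licensing factor Cdc6 (-3.26) in cKO cells. All 13 G2/M genes were called lower as well, with medians of -3.09 and -2.04, the mitotic checkpoint kinase Bub1 (-3.31) and topoisomerase Top2a (-2.21) falling furthest. In sPre-B cells, 14 of the 28 G1/S targets were higher in cKO than in Ctrl cells and 1, the licensing factor Cdt1 (log2 fold change -0.38), was lower, with a median of 0.53, against 19.8% and 14.9% of all tested genes. Thymidylate synthase Tyms had the largest increase (log2 fold change 1.63, SE 0.32, edgeR quasi-likelihood adjusted p = 0.00523). Of the G2/M genes, 5 of 13 were higher there, with Bub1 highest (1.38, SE 0.20, edgeR quasi-likelihood adjusted p = 0.00111). Without Ctrl sPre-B replicate 1, 19 of the 28 and 11 of the 13 were higher, without replicate 2, 12 and 2, and on the 6 Xist-expressing libraries 11 and 1; Cdt1 was not called lower in any of these 3 fits. Over all genes those fits called 2335, 2368 and 2582 higher, against 3505 with all libraries. In early LPre-B cells, 3 of 28 and 2 of 13 were lower in cKO cells and none was higher, the replicative helicase subunit Mcm3 (-0.60) and the mitotic activator Cdc20 (-0.76) by the most, against 16.9% of all tested genes lower, and on the Xist-expressing libraries 9 and 4 were lower, where 2135 of all genes were, against 2983 with all libraries. The stage by genotype term was called positive for 3 of the 28, Mybl2 having the largest (1.43, edgeR quasi-likelihood adjusted p = 0.0110), and for Bub1 among the 13 (1.26). Without Ctrl sPre-B replicate 1 these counts were 16 and 13, without replicate 2 they were 2 and 0, and on the Xist-expressing libraries 1 and 0. Over all genes the positive terms were 569, 142 and 59 in these fits, against 467. The lists share genes with each other, Mybl2 and Ccne1 among them, but hold none of the 10 members.

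The kinases that phosphorylate pocket proteins, and their inhibitors, were read next. Over all tested genes, 31.1% were called lower with stage in each genotype and 29.1% (Ctrl) or 31.6% (cKO) higher, 14.5% were called higher and 16.9% lower in cKO early LPre-B cells, and 19.8% and 14.9% in cKO sPre-B cells. Of the 8 G1 cyclins and kinases, 7 fell with stage in each genotype and cyclin D1 (Ccnd1) rose (0.67 and 0.84 on the log2 scale). Cyclin D2 (Ccnd2), which activates CDK4 and CDK6 to phosphorylate RB1, fell to 18.1 and 12.1 CPM in Ctrl sPre-B cells but stood at 227 and 158 CPM in cKO sPre-B cells, 12.7-fold higher (log2 fold change 3.67, SE 0.25, edgeR quasi-likelihood adjusted p = 4.07e-05). It was also higher in cKO early LPre-B cells (0.91, adjusted p = 0.0161), and its stage by genotype term was 2.76 (adjusted p = 0.00612). On the Xist-expressing libraries these differences were of similar size, 3.37 in sPre-B cells (adjusted p = 0.00210), 0.86 in early LPre-B cells (0.0602) and 2.51 for the stage by genotype term (0.0649), the last pair not called. Cdk2 was the only gene of this list called lower in cKO sPre-B cells (-0.50), and Cdk6 was lower by the most in cKO early LPre-B cells (-0.37).

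Among the 7 CDK inhibitors, Cdkn1a (p21) was at 21.1 and 17.4 CPM in cKO against 4.54 and 3.50 CPM in Ctrl sPre-B cells, 4.78-fold higher (log2 fold change 2.26, SE 0.15, edgeR quasi-likelihood adjusted p = 4.07e-05), with a stage by genotype term of 1.99 (adjusted p = 0.00384). It had fallen the most of this list with stage in Ctrl cells (-3.55). Cdkn1b (p27) rose with stage in both genotypes (1.14 and 1.27) and Cdkn2c fell the most in cKO cells (-1.70). Cdkn2d was lower in cKO sPre-B cells (-0.42). In early LPre-B cells 4 of the 7 were lower in cKO, against 16.9% of all tested genes, led by Cdkn2a (-2.28), whose level was below 1 CPM in all 8 libraries.

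Among the 7 MuvB and DREAM components, 5 fell with stage in each genotype (against 31.1% of all tested genes), Mybl2 (B-MYB) by the most (-3.64 and -2.21), while Lin37 rose (0.42 and 0.52). Mybl2 was at 39.7 and 43.1 CPM in cKO against 15.6 and 11.3 CPM in Ctrl sPre-B cells (log2 fold change 1.62, SE 0.14, edgeR quasi-likelihood adjusted p = 0.000114). Lin37 was called higher in cKO early LPre-B cells (0.32) and the histone binding subunit Rbbp4 was called lower there (-0.65). Of the 4 corepressor genes that pocket proteins recruit, 3 fell with stage in each genotype (again against 31.1%), the histone methyltransferase Suv39h1 by the most (-2.10 and -1.96), and Sin3b rose (0.46 and 0.44). In cKO cells 2 of the 4 were lower at each stage, against 16.9% of all tested genes in early LPre-B and 14.9% in sPre-B cells, Hdac2 by the most in early LPre-B (-0.50) and Sin3b in sPre-B cells (-0.45).

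**Figure D5:**
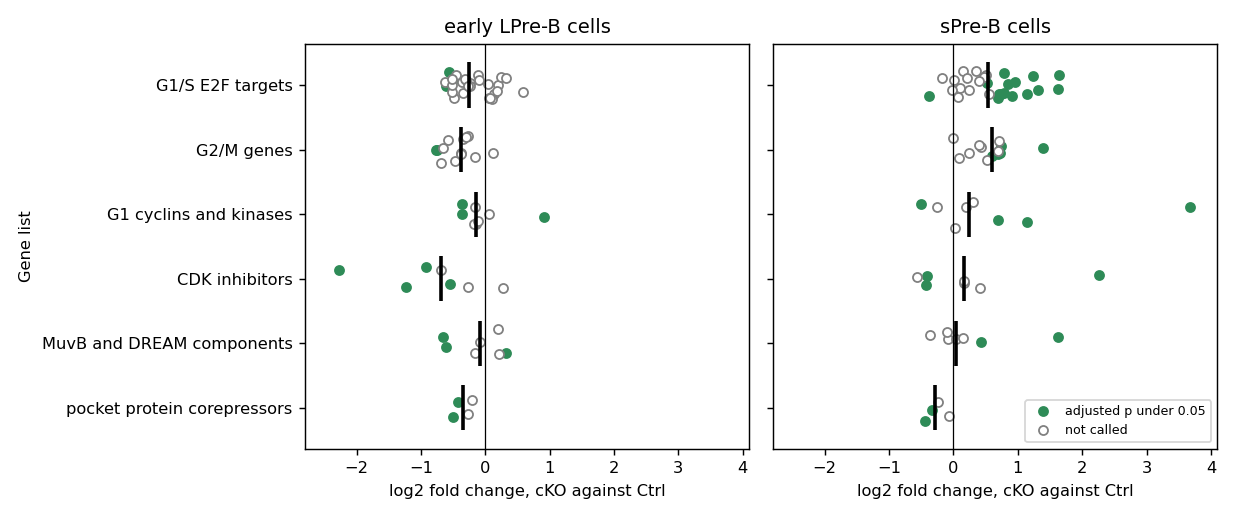
Log2 fold change, cKO against Ctrl, of every tested gene of 6 pathway lists in early LPre-B (left) and sPre-B cells (right), with 1 point per gene, filled where called, and a black bar at the list median. The G1/S targets lie around a median of -0.25 in early LPre-B and 0.53 in sPre-B cells, and the points farthest to the right in sPre-B cells are Ccnd2 (3.67) and Cdkn1a (2.26).

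For 4 members, the genes with the most similar profile were sought among 9804 genes with an average log2 CPM of at least 3, by the root mean square difference of centred log2 CPM over the 8 libraries. The nearest to E2f1 were the replication inhibitor Gmnn (0.063), the helicase subunit Mcm3 (0.097) and the helicase Ercc6l (0.11). For E2f8 they were the overlapping gene Gm2788 (0.067), the condensin II subunit Ncapg2 (0.097) and Lrr1 (0.12). E2f4 lay nearest to Rap1a (0.040), Tmem69 (0.043) and Mphosph10 (0.044), and Rb1 to Synj2bp (0.047), Bod1l (0.055) and a gene with no matched symbol (0.055). The 8 libraries fall into 4 groups, so these distances mostly describe shared group means. Across all libraries, log2 levels ranged by 4.41 for E2f8, 4.38 for E2f7 and 3.85 for E2f1, and by 0.44 for Rb1, 0.55 for E2f5 and 0.58 for E2f2.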

How the data were processed

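RNA-seq of early LPre-B and sPre-B cells from Ctrl and Upf1-cKO mice with Igh B1-8hi/+ gave 8 libraries in 4 groups of 2, grouped by GEO's labels. The authors deposited raw counts per Entrez gene ID, not normalised. The submitters' processing notes name Trim Galore, HISAT2, featureCounts and the build mm10. Per the study's methods, HISAT2 treated the reads as paired-end and unstranded; versions, the counting annotation and the strand setting of featureCounts are not given in the sources used here. Symbols were matched for 25275 of 27179 IDs.

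Counts were fitted with edgeR 4.0.16 (R 4.3.3; TMM factors, filterByExpr, 1 mean per group, quasi-likelihood F test, two-sided), leaving 17700 genes, with Benjamini-Hochberg adjustment over all of them and 5 contrasts from 1 fit. The SE is the absolute log2 fold change over the square root of F. CPM per kb used merged exon length from GENCODE M21 basic, which may differ from the annotation used for counting. Sequences are from RefSeq on GRCm38.p6.

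All 10 members were named in each comparison, and from each pathway list the called gene with the largest change in each direction, plus E2f6, Tfdp1, Tfdp2 and Upf1; other genes were named after their values were seen. The members and lists were chosen with earlier results of these data known. The alternatives were a likelihood-ratio test, DESeq2 1.42.0, RLE factors, no expression filter, a block of replicate number (across all groups, or within genotype for the stage terms) and leaving out each library. The 6 Xist-expressing libraries and the balance without E2f2 were added after seeing the data. The fits were tested on simulated data. Counting error only is covered by depth, and no interval here needs it.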

Additional observations from a re-analysis of the deposited data

Results flagged for a closer look

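Rbl1 was marked because its genotype difference was not the same at the 2 stages by the test of the difference itself. The stage by genotype term was 0.91 on the log2 scale (SE 0.20, edgeR quasi-likelihood adjusted p = 0.0403), with cKO below Ctrl in early LPre-B (-0.26) and above it in sPre-B cells (0.65). The early LPre-B difference was not called (edgeR quasi-likelihood adjusted p = 0.185). Both Ctrl sPre-B libraries lay below both cKO sPre-B libraries, and both cKO early LPre-B libraries lay below both Ctrl early LPre-B libraries. Such separation was common with 2 libraries per group: 8 of the 10 members showed it in early LPre-B and 8 in sPre-B cells. Over 15 alternative fits the term ranged from 0.59 to 1.04, with an adjusted p from 0.00157 to 0.195, and was called in 7. No group has the 4 libraries that a search for a single outlying library would need.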

How the results depend on the processing

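With 2 libraries per group, 1 library can decide a call. Of 730 results of single members under the alternatives, 650 kept their direction and side of the threshold, 30 lost a call, 29 gained one and 21 changed sign. The 6 genes called lower with stage were called in all alternatives in both genotypes, as was Rbl1 between genotypes in sPre-B cells. The likelihood-ratio test, DESeq2, no expression filter, a block of replicate number within genotype and the Xist-expressing libraries gave 1004, 1037, 1078, 1360 and 59 genes with a positive stage by genotype term and 504, 721, 497, 782 and 33 with a negative one, against 467 and 283; the members among the positive ones were 2, 3, 4, 2 and 0, against 1. Members called higher in cKO sPre-B cells were 4 with the likelihood-ratio test, 4 with no expression filter and 1 on the Xist-expressing libraries, against 2, and 1 was called lower with RLE factors. On the Xist-expressing libraries 1 member was lower in cKO early LPre-B cells, against 2. The cause was not tested.

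Leaving out each library in turn gave 84 to 569 positive and 42 to 333 negative stage by genotype terms, with 0 to 4 members positive. In early LPre-B cells it gave 1634 to 2790 genes higher and 1289 to 2717 lower in cKO, with 0 to 2 members lower. In sPre-B cells it gave 2258 to 3381 higher and 1366 to 3256 lower, with 1 to 4 members higher and 0 to 1 lower. With stage in Ctrl cells, 0 to 2 members were higher.

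Sign changes were limited to small log2 differences that were not called. Leaving out libraries gave, in early LPre-B cells, -0.253 to 0.0919 for Rb1 (0.0926 on the Xist-expressing libraries) and -0.0574 to 0.189 for Rbl2, and in sPre-B cells -0.0359 to 0.194 for E2f5 (-0.0168 on the Xist-expressing libraries). The stage by genotype terms ranged from -0.0737 to 0.0893 for E2f3 (-0.0845 on the Xist-expressing libraries), -0.0790 to 0.107 for E2f4 and -0.284 to 0.0970 for Rb1. With stage in cKO cells, E2f2 ranged from -0.0326 to 0.119, E2f5 from -0.174 to 0.177 (0.000209 with replicate number within genotype as a block) and Rb1 from -0.0166 to 0.274.

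The labels do not say that a number marks a shared animal. Deviations of same-numbered libraries from their group means correlated at 0.395 between the Ctrl stages, 0.254 between the cKO stages, 0.155 between genotypes in early LPre-B and 0.0858 in sPre-B cells. Between Ctrl sPre-B and cKO early LPre-B cells the value was 0.198, and between Ctrl early LPre-B and cKO sPre-B cells 0.0514. Libraries of different genotypes cannot share an animal. The block of replicate number across all groups changed no call of a member: Rbl1 was 0.65 higher in cKO sPre-B cells (adjusted p = 0.00939) and its stage by genotype term was 0.91 (adjusted p = 0.0426, edgeR quasi-likelihood). The block within genotype added calls for E2f2 with stage in Ctrl cells and for the E2f1 stage by genotype term, as given above.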
